A study of Arabidopsis thaliana with 3 samples.

Results

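This comparison sets OE line #6 of *35S:SlHsfA3* *Arabidopsis* against wild-type Col-0, gene by gene, on the reads deposited for each genotype. OE line #6 carries the heat stress transcription factor gene *SlHsfA3* of tomato under the 35S promoter, which is active in most plant cells, in the Col-0 background. Genes entered the comparison if line #6 or Col-0 had at least 10 reads, which held for 18463 of the 33602 loci in the table. Of the remaining 15139 loci, 10705 had no read in either library. At the limit, 208 genes had 10 reads in the library with more reads and were kept, and 193 genes had 9 and were left out. The series holds 3 libraries, 1 each of Col-0, OE line #3 and OE line #6. Both OE lines are independent transformants of the same construct. Each library came from the pooled aerial parts of 20 plants aged 4 weeks, which were not stressed. The tomato transgene has no row in the table, so its level in line #6 was not analysed here.

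Heat stress transcription factors (Hsfs) are proteins that bind heat shock elements, short inverted repeats of GAA, in promoters. Their best known targets encode heat shock proteins (Hsps), chaperones that keep other proteins from aggregating and help them refold. Small Hsps hold unfolding proteins, Hsp70 and Hsp101 refold or disaggregate them, and in plants most small Hsp genes are nearly silent in vegetative tissue until heat arrives. HsfA3 is a member of this family that in *Arabidopsis* acts downstream of the drought and heat factor DREB2A.

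There were no replicates: with 1 pool per genotype the difference between line #6 and Col-0 cannot be set against the spread between plants or pools, and no p-value or standard error is given. Each ratio has instead a 95% exact counting interval, which covers the error of counting reads only. A gene was called higher or lower when its scaled ratio was at least 2 or at most 0.5 and this interval left out 1. Reads were scaled by trimmed mean of M values (TMM) and are given as CPM, the reads of a gene relative to the scaled size of its library. A count of 0 was set to 3 reads, and a fold against 0 is written as at least the value this gives. Such a bound leaves out the counting error of the other library, and the lower end of the counting interval lies below it. For HSP21, a small Hsp with 0 reads in Col-0, the bound was 11.8 and the lower end of the interval 9.16. Because a pool of whole shoots was measured, fewer cells of a type and less RNA per cell cannot be told apart.

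Reads in genes came to between 9968154 and 11556077 per library. The share of reads in ribosomal RNA genes was 20.9% for line #6, 26.6% for Col-0 and 32.5% for line #3. The leaf markers *RBCS1A*, *RCA*, *LHCB1.1* and *LHCB2.1* had between 10227 and 136217 reads in each library. None of 9 seed marker genes reached 10 reads in line #6 or Col-0, and 3 of 9 root marker genes did, led by *PYK10*, a root and hypocotyl beta-glucosidase, with 598, 647 and 895 reads in Col-0, line #3 and line #6. Among the 7307 genes with a mean of at least 200 reads, the central 95% of log2 ratios of line #6 to Col-0 lay between -0.53 and 0.50, and 39 of these genes were past 2-fold. The ratio of line #6 to line #3, the pools that share the construct, had a similar central range of -0.47 to 0.52, with 52 genes past 2-fold. The ratio also varied with gene length. The median log2 ratio of line #6 to Col-0 was -0.106 in the shortest 25% of genes, which held 76 of the higher and 154 of the lower calls, and 0.056 in the longest 25%, with 43 higher and 18 lower calls. The part of gene length in the calls was not tested.

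In line #6, 234 genes (1.27% of those compared) were higher than in Col-0 and 295 (1.60%) were lower, and 17934 were neither. Of the gene lists examined, small Hsps had the largest share of higher genes (66.7% of members with enough reads), followed by co-chaperones and other heat response genes (57.1%). In these lists the largest shares of lower genes were in tapetum and pollen coat genes (76.9%) and floral organ identity genes (66.7%). Secondary cell wall genes (42.9%) and iron supply genes (33.3%) came next. In the tapetum and floral lists only 3 members each had 50 or more reads in line #6 or Col-0. Some members of both lists, such as GRP17 and AP3, reached the minimum through Col-0 alone and could be called lower but not higher. Outside these lists, 50% of 8 defensin-like genes and 33.3% of 15 ribosomal RNA genes were lower. In the library with more reads, the called genes had a median of 38 reads among the higher and 30 among the lower genes, and 71 higher and 115 lower genes had fewer than 25. The counting interval lay wholly past 2-fold for 50 higher and 60 lower genes. Higher genes made up 44.2% of the calls with TMM, and 63.9% when the libraries were scaled by total reads, which moves the median log2 ratio of all genes from 0.001 to 0.138.

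**Figure D1:**
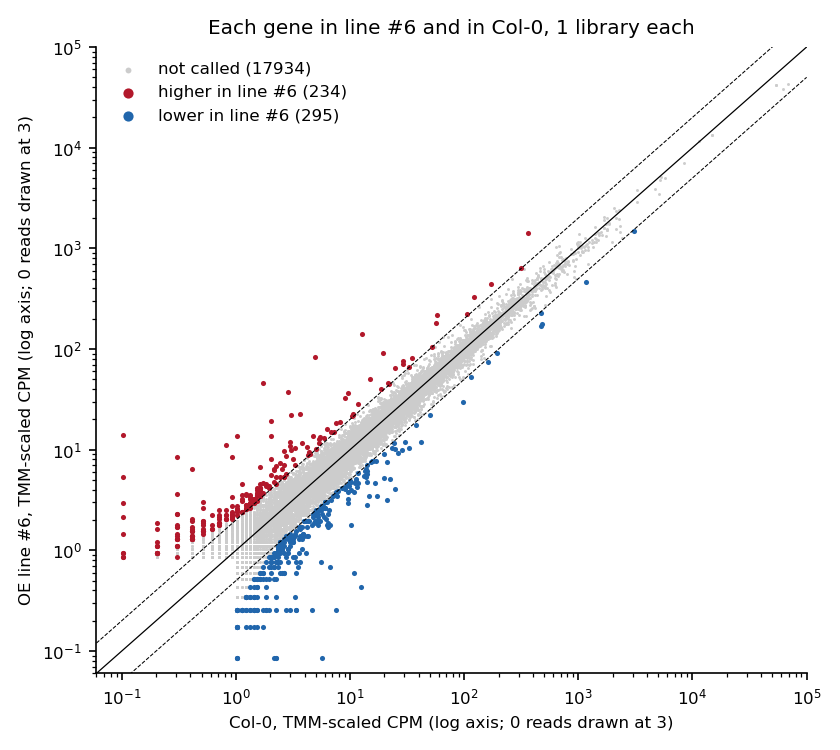
Each point is 1 of the 18463 genes, with its TMM-scaled CPM in Col-0 on the horizontal log axis and in OE line #6 on the vertical log axis; the solid line marks equal levels and the dashed lines 2-fold. The 234 higher and 295 lower genes lie mostly at low CPM, and few genes with high CPM leave the band of 2-fold.

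The small Hsps were higher in line #6 as a group. Of 15 members with enough reads, 10 were called higher and none lower, with a median log2 ratio of 2.86 beside 0.00 over all genes. HSP17.7-CII, a class II cytosolic small Hsp, had 48, 792 and 967 reads in Col-0, line #3 and line #6. This was 16.9-fold higher in line #6 than in Col-0 (interval 12.7 to 23.1). HSP15.7-CI, a further small Hsp, had 17, 361 and 531 reads in the same order and was 26.3-fold higher (16.2 to 45.4). HSP17.4-CI, a class I cytosolic member, had 28, 265 and 433 reads and was 13.0-fold higher (8.87 to 19.8). In each of these genes Col-0 was lowest and both OE lines were high. HSP17.6B-CI had 30, 281 and 259 reads, 7.26-fold higher in line #6 (4.96 to 11). HSP17.6-CII, the neighbor of HSP17.7-CII on the chromosome, had 20, 243 and 222 reads, 9.33-fold higher (5.90 to 15.6). HSP21, the small Hsp of the chloroplast, had 0, 56 and 42 reads in Col-0, line #3 and line #6, which makes it at least 11.8-fold higher. HSP22.0-ER, of the endoplasmic reticulum, had 0, 22 and 27 reads and was at least 7.56-fold higher, and neither bound can be ranked against the other members. Summed over the list, small Hsps reached 52, 235 and 270 CPM in Col-0, line #3 and line #6.

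Because Hsfs are defined by the element they bind, the elements in front of the 3 small Hsp genes with the most reads are shown here. The 250 bases before the annotated start were searched on both strands for GAANNTTC or TTCNNGAA, which each read the same on both strands. Each line below gives 30 bases in the direction of the gene, with the matched element or overlapping elements in capitals. The sequences are from RefSeq, assembly TAIR10.1. The first lies on the minus strand at chr5:3884842-3884871, the second on the plus strand at chr5:14968589-14968618, and the last pair on the minus strand at chr3:16984946-16984975 and chr3:16984868-16984897.
HSP17.7-CII: gatcaagacgtTTCTCGAAcgttagagaag
HSP15.7-CI: atatgttgctaTTCATGAAatcttgagtat
HSP17.4-CI, far: atcaacataGAAGCTTCTTGAAgccacctg
HSP17.4-CI, near: aagaagaaacctGAAATTTCAAGAAacttg
HSP17.7-CII and HSP15.7-CI each held 1 element, beginning 22 and 158 bases before the start, and HSP17.4-CI held 4, the furthest beginning 99 bases before the start. Of the 10 small Hsp genes higher in line #6, 6 held an element in this window. The element was present in 16% of all 26711 promoters of this length, in 21% of the 214 promoters of higher genes and in 14.2% of the 261 promoters of lower genes. The core ACGTG of the abscisic acid response element, on either strand, was in 33.6% of promoters of higher genes, 23.8% of those of lower genes and 23.1% of all. The core GAGAC of the sulfur response element was in 29%, 32.2% and 25.7% in the same order. A match is a stretch of letters and was not tested for binding.

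Co-chaperones and other heat response genes were also higher in line #6: 8 of 14 with enough reads were called higher and none lower, with a median log2 ratio of 1.28. APX2, a cytosolic ascorbate peroxidase that removes hydrogen peroxide, had 1, 121 and 164 reads in Col-0, line #3 and line #6. Its ratio of line #6 to Col-0 was 138, with a wide interval of 24.4 to 5480 because it rests on the 1 read. EGY3, a chloroplast protein related to a membrane protease, had 124, 1191 and 1624 reads and was 11-fold higher (9.17 to 13.3). GOLS1, a galactinol synthase of the raffinose pathway, had 565, 2118 and 2556 reads and was 3.80-fold higher (3.47 to 4.17). ROF2, an immunophilin of the FKBP type, had 553, 2012 and 2134 reads, 3.24-fold higher (2.95 to 3.57). The coactivator MBF1C stood near the limit with 322, 548 and 775 reads, 2.02-fold higher in line #6 (1.77 to 2.31), and was not called in line #3.

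The larger chaperones changed less uniformly. In the Hsp70 family 3 of 17 members were higher and none lower. HSP70-4, a cytosolic Hsp70, had 3541, 12641 and 16696 reads in Col-0, line #3 and line #6 and was 3.96-fold higher in line #6 (3.82 to 4.11), the most reads of any called heat gene. HSP70T-2, a truncated Hsp70, had 20, 112 and 161 reads and was 6.77-fold higher (4.24 to 11.4). HSP70B had 20, 45 and 65 reads and was 2.73-fold higher (1.63 to 4.76). HSC70-1 and HSP70-3, which had the most reads of the family in Col-0, went the other way without reaching 2-fold, as did HSC70-2. HSC70-1, a cytosolic Hsp70 present without stress, had 49373, 33390 and 40048 reads, 1.47-fold less in line #6 than in Col-0 (1.45 to 1.49). HSP70-3 had 23613, 11377 and 14590 reads, 1.93-fold less (1.89 to 1.97), and HSC70-2 had 5025, 2037 and 3170, 1.89-fold less (1.8 to 1.97). Against the same Col-0 reads, HSP70-3 and HSC70-2 were called lower in line #3. These 3 genes were named after their values were seen. The summed level of the family was 11200, 8570 and 9500 CPM in Col-0, line #3 and line #6, and its median log2 ratio in line #6 was 0.29. Among 13 Hsp90, Hsp100 and Hsp60 genes the only call was HSP101, the cytosolic disaggregase, with 287, 673 and 824 reads, 2.41-fold higher (2.11 to 2.77). The list's median was -0.16. Chaperones of the endoplasmic reticulum were not called in any of 15 genes, though 14 had a log2 ratio above 0 and their median was 0.36. HSP90.7, one of them, had 6309, 12074 and 10057 reads, a 1.34-fold difference between line #6 and Col-0 (1.3 to 1.38). At the shares over all genes, 1.27% higher and 1.60% lower, a list of 15 genes can hold no call.

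Among the 15 *Arabidopsis* Hsf genes with enough reads, 1 was higher and 1 lower in line #6. HSFA2, a strongly heat-inducible activator, had 163, 45 and 54 reads in Col-0, line #3 and line #6 and was 3.59-fold lower in line #6 (2.62 to 4.98). HSFB2A, a class B Hsf, had 116, 248 and 330 reads and was 2.39-fold higher (1.93 to 2.98). HSFA3, the *Arabidopsis* counterpart of the transgene, had only 9, 6 and 4 reads, under the minimum for the comparison.

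**Figure D2:**
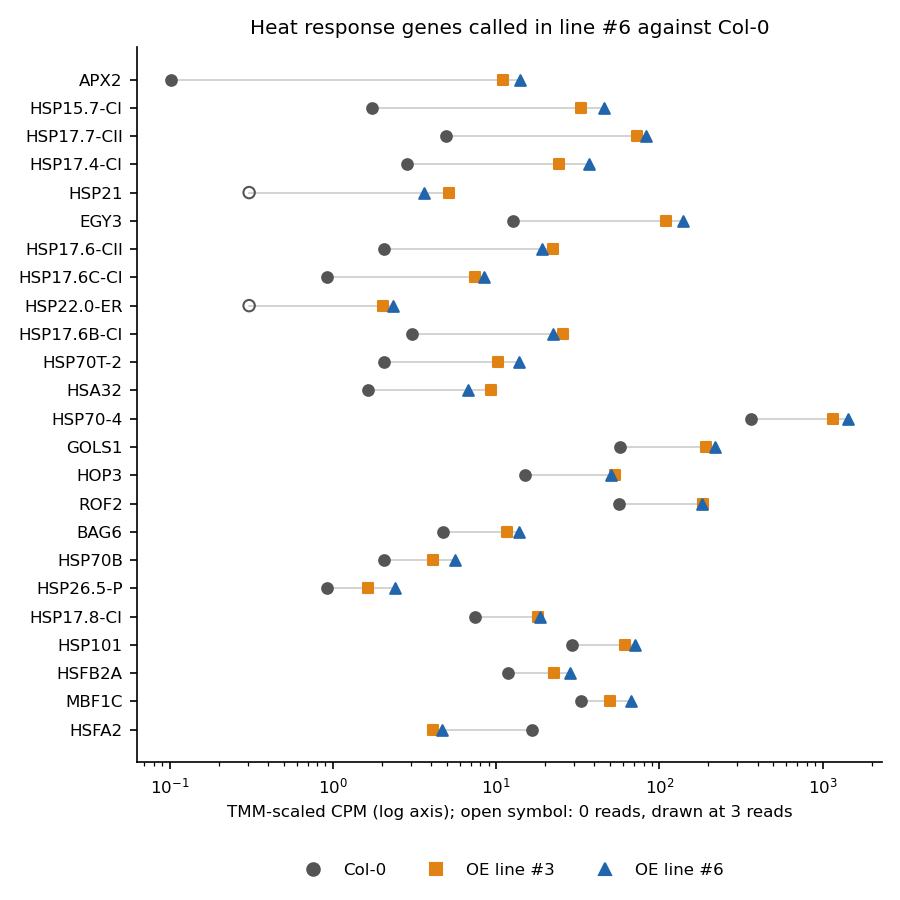
Each row is a heat response or Hsf gene called in line #6 against Col-0, and each symbol its TMM-scaled CPM in 1 library on a log axis (grey circle Col-0, orange square line #3, blue triangle line #6; open symbols have 0 reads and are drawn at the level of 3). In every row except HSFA2 both OE lines lie to the right of Col-0, and the squares and triangles lie close together.

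The next question was whether the heat genes differ between line #6 and line #3. The ratios of both lines to Col-0 share the Col-0 library, so the lines were set against each other directly. Between lines #6 and #3, 144 of 18648 genes (0.772%) were higher in line #6 and 395 (2.12%) lower. None of the 59 small Hsp, chaperone, co-chaperone and other heat genes with enough reads was among them, and their log2 ratios of line #6 to line #3 lay between -0.51 and 0.86 with a median of 0.11. Of all 18463 genes with enough reads in line #6 or Col-0, as these 59 have, 145 were higher and 281 lower in line #6 than in line #3. At such shares a set of 59 genes can hold no call without differing from other genes. Of the 22 heat genes higher in line #6, 20 were also called higher in line #3 against the same Col-0 reads. HSP17.7-CII differed 1.15-fold between the lines (1.04 to 1.26) and HSP17.4-CI 1.53-fold (1.31 to 1.79), both with more in line #6. HSP17.6-CII had 1.17 times more in line #3 (0.969 to 1.41).

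Several large changes outside the heat lists were seen in both OE lines, against the same Col-0 reads. MAF5, a MADS-box relative of the flowering repressor FLC, had 4, 64 and 74 reads in Col-0, line #3 and line #6 and was 15.5-fold higher in line #6 (5.82 to 58.6). HEI10, a RING protein known for its role in meiotic crossovers, had 10, 159 and 158 reads, 13.3-fold higher (7.03 to 28.2). Its neighbor MRD1 had 1, 78 and 62 reads, a ratio of 52.1 (9.01 to 2090). Both genes overlap in the annotation and the library protocol names no step that keeps the strand, so their reads may be shared. The glucosyltransferase UGT73C1 had 8, 61 and 131 reads, 13.8-fold higher in line #6 (6.78 to 32.6) and 2.01-fold higher than in line #3 (1.48 to 2.78). AT4G23493, annotated as an unknown protein, had 3, 52 and 98 reads, a ratio of 27.5 (9.12 to 135). Among the lower genes, AT3G11500, annotated as a small nuclear ribonucleoprotein, fell from 121 reads for Col-0 to 5 in each line, 28.8-fold lower in line #6, with the lower end of the interval at 12. FAR6, of the fatty acid reductase family, had 105, 0 and 7 reads and was 18-fold lower (8.36 to 45.5). AT5G35935, a transposable element gene, was at 29 reads for Col-0 and at 0 in both lines, at least 11.5-fold lower in line #6.

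Genes changed in line #6 and not in line #3 were few. A gene was placed in this class when it was called in line #6 against Col-0, lay within 1.5-fold of Col-0 in line #3, and was called the same way between the lines. This held for 12 higher genes (0.0650%) and 57 lower genes (0.309%). Without the last 2 conditions, 109 of the 234 higher and 190 of the 295 lower genes were not called the same way in line #3. Among these, line #3 lay within 1.5-fold of Col-0 in 34 higher and 95 lower genes.

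PYD4, annotated as PYRIMIDINE 4 and placed in the pyrimidine breakdown pathway, led the 12 higher genes. It had 88, 93 and 379 reads in Col-0, line #3 and line #6, 3.62-fold higher than Col-0 (2.86 to 4.62) and 3.82-fold higher than line #3 (3.04 to 4.85). HAI2, a clade A protein phosphatase 2C that is induced by abscisic acid and dampens its signalling, had 32, 26 and 120 reads. It was 3.15-fold higher than in Col-0 (2.12 to 4.81) and 4.33-fold higher than in line #3 (2.82 to 6.90). SAG29, a sugar transporter gene that is active in senescence, had 27, 28 and 100 reads and was 3.11-fold higher than in Col-0 (2.02 to 4.96). In these genes only the library of line #6 stood high, and Col-0 and line #3 lay side by side, as the rule of the class requires. PAP22, a purple acid phosphatase, had 26, 33 and 82 reads, 2.65-fold higher (1.69 to 4.29), and the transcription factor NAC080 had 16, 17 and 49 reads, 2.57-fold higher (1.44 to 4.85). AT5G37970, annotated as a methyltransferase, had 3, 5 and 27 reads, a ratio of 7.56 (2.33 to 39.0). The other 6 were AT5G07650, AT3G27025, AT2G34610, GPCR, ORP4C and AT4G40070, with 11 to 42 reads in line #6 and ratios of 2.33 to 4.83. GPCR, annotated as a G protein coupled receptor, had the fewest, with 2, 2 and 11 reads and a ratio of 4.62 (1.01 to 42.9). Only 4 of the 12 genes had 50 or more reads in line #6.

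Few members of related lists were called in line #6, but these lists are short. The share called higher was 14.3% in clade A phosphatases and 4.76% in cold, drought and abscisic acid response genes. In senescence and sugar starvation genes it was 10%, and 20% were lower. Over all genes 1.27% were higher and 1.60% lower. HAI2 was the only called gene of 7 clade A phosphatases, although all 7 had a log2 ratio above 0 (median 0.28). Among 21 cold, drought and abscisic acid response genes RD29B alone was called, with 15, 27 and 46 reads in Col-0, line #3 and line #6, 2.58-fold higher (1.41 to 4.97). The median log2 ratio of these 21 genes was 0.29 in line #6 and -0.25 in line #3, each to the same Col-0 reads, and 0.65 between line #6 and line #3, beside 0.01 over all genes. In 10 senescence and sugar starvation genes PYD4 was higher and DIN10 and SAG12 lower. SAG29, named above as higher in line #6, is not a member of this list. SAG12, a senescence protease, had 15, 0 and 3 reads, a ratio of 5.95 in favor of Col-0 (1.68 to 32.1). DIN10, of the raffinose synthase family, had 139, 118 and 82 reads and was 2.02-fold lower (1.52 to 2.68), a call lost when scaled by total reads (log2 ratio -0.88).

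**Figure D3:**
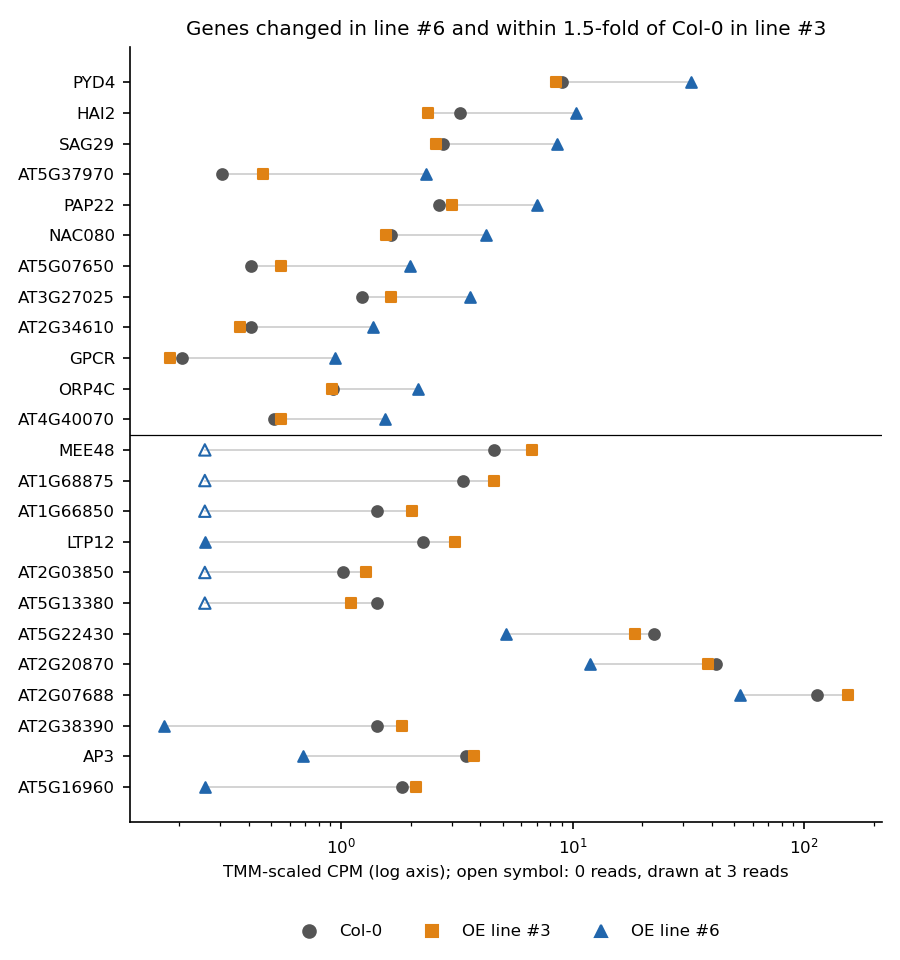
TMM-scaled CPM on a log axis in Col-0 (grey circle), line #3 (orange square) and line #6 (blue triangle) for the 12 higher genes of the class (above the line) and the 12 lower genes furthest from line #3 (below it); open symbols have 0 reads and are drawn at the level of 3. As the rule of the class sets in advance, the circles and squares lie side by side in each row, and the triangles stand apart. They lie to the right above the line and to the left below it.

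The 57 lower genes of the class were led by genes with no read in line #6. MEE48, a glycosyl hydrolase of family 17, had 45 reads in Col-0 and 73 in line #3 and none in line #6, a log2 ratio of at most -4.16 to Col-0, and at least 25.9-fold lower than line #3. AT1G68875, annotated as an unknown protein, had 33, 50 and 0 reads, at least 13.1-fold lower than Col-0. AT1G66850, of the lipid transfer protein superfamily, had 14, 22 and 0 reads, AT2G03850, of the late embryogenesis abundant family, 10, 14 and 0, and AT5G13380, of the GH3 family, 14, 12 and 0. All 5 genes reached the minimum of 10 reads through Col-0 alone, AT2G03850 just at that limit, so that they could be called lower but not higher. That line #3 lay near Col-0 in them is set by the rule of the class. A read count of 0 in line #6 allows up to 0.258 CPM. LTP12, a lipid transfer protein of the tapetum, had 22, 34 and 3 reads, a ratio of 8.72 in favor of Col-0 (2.62 to 45.5). The peroxidase AT2G38390 had 14, 20 and 2 reads, and AT5G16960, annotated as a zinc-binding dehydrogenase, 18, 23 and 3. LTP12, AT2G38390 and AT5G16960 also reached the minimum through Col-0 alone.

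Genes with more reads were in this class as well. AT2G20870, annotated as a cell wall protein precursor, had 406, 420 and 138 reads in Col-0, line #3 and line #6, 3.50-fold lower than Col-0 (2.88 to 4.28) and 3.24-fold lower than line #3 (2.67 to 3.96). AT5G22430, of the pollen Ole e 1 allergen and extensin family, had 220, 203 and 60 reads, 4.36-fold lower than Col-0 (3.27 to 5.91). In both genes Col-0 and line #3 differed by at most 1.21-fold. AT2G07688, a pseudogene similar to the photosystem II protein D1 of the chloroplast, had 1116, 1689 and 615 reads, 2.16-fold lower (1.95 to 2.39), and was not called when scaled by total reads (log2 ratio -0.97). Its reads cannot be told apart from those of near-identical copies, and ATCG00020, the chloroplast gene for that protein, had 29821, 39259 and 17155 reads. The class held 4 genes of the chloroplast genome, 2 of the mitochondrial genome and 3 of the chromosome 2 loci whose numbers begin with AT2G07, where a copy of mitochondrial sequence lies.

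Genes of the tapetum and the pollen coat set line #6 apart from both other libraries. The tapetum is the anther tissue that feeds the pollen and supplies its coat. Of 26 listed genes, 13 had enough reads in line #6 or Col-0. Of these 10 were lower in line #6 and none higher, with a median log2 ratio of -2.84. GRP17, ATA27, EXL4, GRP19 and CYP703A2 reached the minimum of 10 reads through Col-0 alone, so that they could be called lower but not higher. Only 3 of the 13 had 50 or more reads in line #6 or Col-0, and these 3 were called lower. Summed over all 26 genes, the level was 48.5, 136 and 9.88 CPM in Col-0, line #3 and line #6, and 12 of the 26 had no read in line #6, against 4 in Col-0 and 3 in line #3. Line #3 was not low: against Col-0, 5 of the 13 genes were higher and 3 lower there. Between the lines, 9 of the 13 were lower in line #6.

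GRP17, a pollen coat protein of the oleosin type rich in glycine, was counted with 56, 506 and 1 reads in Col-0, line #3 and line #6. The ratio of Col-0 to line #6 was 66.6 (11.5 to 2680) and that of line #3 to line #6 was 539 (96.4 to 21300). GRP19, from the same cluster of genes, had 19, 100 and 0 reads, at least 7.53-fold lower in line #6 than in Col-0. ATA27, a glycosyl hydrolase of the anther, had 73, 176 and 0 reads, at least 28.9-fold lower. EXL4, an extracellular lipase of the pollen coat, had 33, 99 and 0 reads, at least 13.1-fold lower. In all 4 genes line #3 was highest, Col-0 lay between and line #6 was at or near 0. ATA20, an anther gene, had 61, 206 and 21 reads, 3.46-fold lower in line #6 (2.07 to 5.98) and 3.03-fold higher in line #3 (2.26 to 4.1) than in Col-0. CYP703A2, a cytochrome P450 of pollen wall synthesis, had 18, 6 and 0 reads and was at least 7.14-fold lower in line #6.

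In all, 9 genes were called lower in line #6 and higher in line #3, and none the other way round. They included the 5 tapetum list genes GRP17, GRP19, ATA27, EXL4 and ATA20. The others were GRP20, a further member of the glycine-rich cluster with 10, 43 and 1 reads, XTH3, a xyloglucan endotransglucosylase/hydrolase with 17, 46 and 0 reads, AT1G20130, a GDSL lipase with 27, 62 and 0 reads, and AT4G16270, a peroxidase with 13, 30 and 5 reads. GRP20 and AT4G16270 were named after their values were seen, to complete the 9. When the libraries were scaled by total reads, 7 of the 9 were still called in opposite directions.

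Most floral organ identity genes were lower in line #6 too, at low read counts. Of 9 with enough reads, 6 were lower in line #6 and none higher, with a median log2 ratio of -1.40. Only 3 of the 9 had 50 or more reads in line #6 or Col-0, and of these 1 was called lower and the median was -0.51. Between the lines, 5 of the 9 were lower in line #6. No member was called between line #3 and Col-0, but members stood on both sides of Col-0 there: SEP3 was 1.94-fold higher in line #3 (1.18 to 3.25) and SHP1 1.98-fold lower (1.14 to 3.5). AP3, the MADS-box gene of petals and stamens, had 34, 41 and 8 reads in Col-0, line #3 and line #6, 5.06-fold lower than Col-0 (2.3 to 12.6) and 5.46-fold lower than line #3 (2.53 to 13.5). AP1, which marks the flower meristem and the outer organs, had 51, 64 and 23 reads, 2.64-fold lower (1.58 to 4.52). SEP3, which acts with these genes in all inner whorls, had 25, 54 and 7 reads, 4.25-fold lower (1.79 to 11.6). SHP1, a carpel gene, had 39, 22 and 16 reads, 2.90-fold lower (1.58 to 5.56). The summed level of the list was 48.7, 46.2 and 28.3 CPM in Col-0, line #3 and line #6. The labels give the harvest as aerial parts and say nothing of flower buds, so how much of each organ a pool held was not tested.

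**Figure D4:**
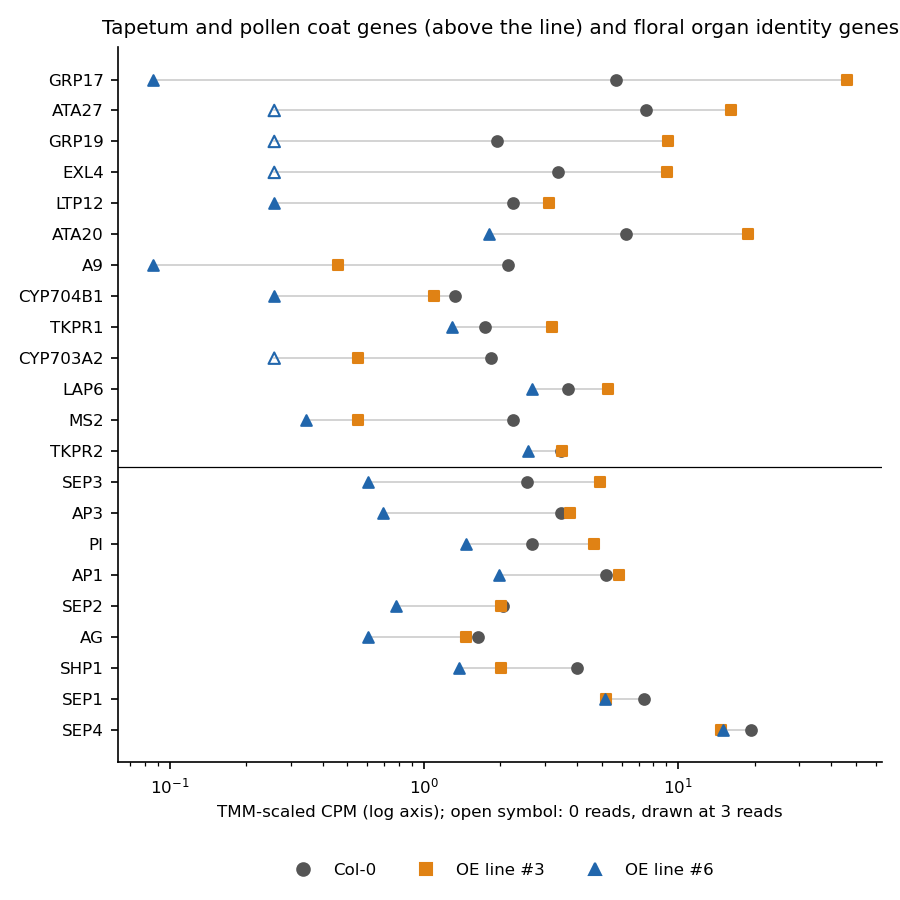
TMM-scaled CPM on a log axis in Col-0 (grey circle), line #3 (orange square) and line #6 (blue triangle) for the 13 tapetum and pollen coat genes (above the line) and 9 floral organ identity genes (below it) with enough reads; open symbols have 0 reads and are drawn at the level of 3. The triangle of line #6 lies to the left of the Col-0 circle in each row, while the square of line #3 lies to the right of the circle for GRP17, ATA27, GRP19, EXL4 and ATA20.

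Genes that time flowering did not move as a group. Of 19 with enough reads, MAF5 was higher and SPL5 and FUL lower in line #6, with a median log2 ratio of 0.01. FUL, a MADS-box gene that promotes flowering, had 138, 84 and 66 reads in Col-0, line #3 and line #6, 2.49-fold lower (1.84 to 3.39). SPL5, a squamosa promoter binding protein that promotes the floral transition, had 75, 74 and 40 reads, 2.23-fold lower (1.5 to 3.36). Line #3 stood near Col-0 for SPL5, but the 1.97-fold difference between the lines (1.32 to 2.97) fell short of the limit.

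Secondary cell wall genes were lower in line #6, with 9 of 21 called lower, none higher and a median log2 ratio of -0.74. CESA4, CESA7 and CESA8 encode the cellulose synthases of the secondary wall. CESA4 had 279, 141 and 116 reads in Col-0, line #3 and line #6, 2.86-fold lower (2.3 to 3.58). CESA7 had 193, 61 and 61 reads, 3.76-fold lower (2.81 to 5.11), and CESA8 129, 75 and 64, 2.40-fold lower (1.76 to 3.29). FLA11, a fasciclin-like protein of the wall, had 157, 103 and 89 reads, 2.1-fold lower (1.61 to 2.75), but not called with total reads (log2 ratio -0.93). In line #3, against the same Col-0 reads, 9 of the 21 genes were lower and 4 higher, but the lower genes were not all the same ones. CESA4 and CESA7 were called lower in line #3. CESA8 (1.92-fold lower, 1.43 to 2.59) and FLA11 (1.7-fold lower, 1.32 to 2.2) were not called there. Between the lines, 2 of the 21 genes were lower in line #6.

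Iron supply genes were lower in line #6 in 6 of 18 cases, with none higher and a median log2 ratio of -0.41. The 4 bHLH factors of subgroup Ib, which iron deficiency induces, were among them. BHLH38 had 138, 67 and 33 reads in Col-0, line #3 and line #6, 4.98-fold lower than Col-0 (3.38 to 7.51) and 2.16-fold lower than line #3 (1.41 to 3.39). BHLH100 had 99, 41 and 21 reads, 5.61-fold lower than Col-0 (3.48 to 9.46) and 2.08-fold lower than line #3 (1.2 to 3.71). In both genes Col-0 was highest and line #6 lowest. The list as a whole was not lowest in line #6: against the same Col-0 reads, line #3 also had 6 of 18 genes lower and none higher, with a median log2 ratio of -0.74. Between the lines, 1 gene was higher and 3 lower in line #6, with a median of -0.01. The neighboring genes AT1G47395 and AT1G47400 had 105, 43 and 44 reads and 88, 33 and 47 reads, 2.84-fold (1.98 to 4.13) and 2.23-fold (1.55 to 3.25) lower in line #6. The ferritin genes, which store iron, were not called.

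Genes of the chloroplast and mitochondrial genomes had mostly lower levels in line #6, with a log2 ratio above 0 in 21 of 96 and 3 of 53 genes. Of the 96 chloroplast genome genes with enough reads, 10 were called lower and none higher, and the median log2 ratio was -0.50 in line #6 against 0.40 in line #3. Without the ribosomal RNA genes the median in line #6 was also -0.50. In the mitochondrial genome 4 genes were lower and none higher, with medians of -0.59 in line #6 and 0.10 in line #3. Between the lines, 30 chloroplast and 13 mitochondrial genes were lower in line #6. ATCG00020, for the photosystem II protein D1, was 2.07-fold lower in line #6 than in Col-0 (2.03 to 2.11). When the libraries were scaled by total reads, 4 chloroplast and 3 mitochondrial genes were still called lower. The nuclear photosynthesis genes were not called in any of 32 cases, with a median log2 ratio of -0.09. Over all genes 1.27% were higher and 1.60% lower, so a list of this size can hold no call. *RBCS1A*, a small subunit gene of Rubisco, differed 1.2-fold (1.19 to 1.21), with 83234 reads in Col-0 and 82332 in line #6.

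**Figure D5:**
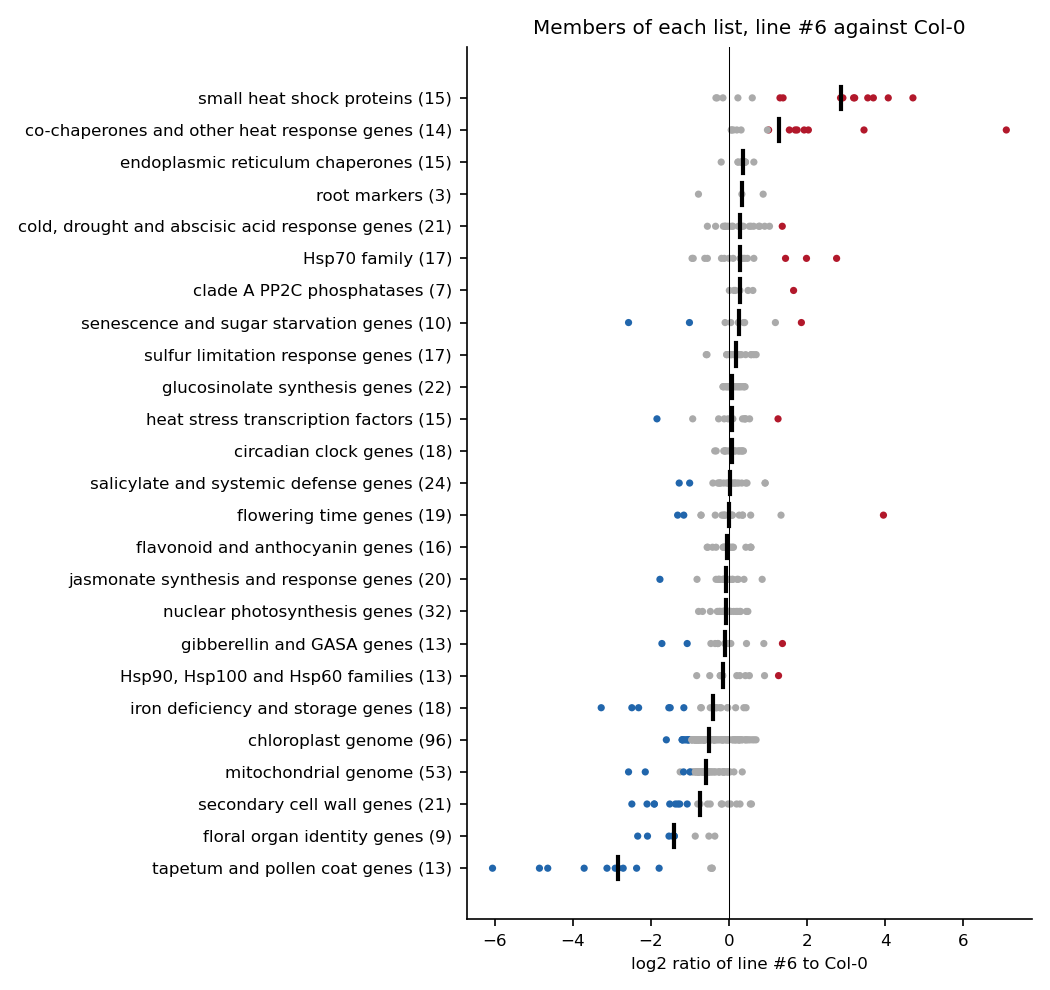
Log2 ratio of line #6 to Col-0 for each member of each gene list (number of members with enough reads in parentheses); red points are genes called higher, blue points lower and grey points neither, and the black bar is the list's median. By their medians, small Hsps lie furthest to the right at 2.86 and tapetum and pollen coat genes furthest to the left with -2.84.

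Hormone and defense lists held few calls, but these lists are short. Of 13 gibberellin and GASA genes with enough reads, 1 was higher and 2 were lower in line #6. In the salicylate list 2 of 24 genes were lower, in the jasmonate list 1 of 20, and none was higher in either. Over all genes 1.27% were higher and 1.60% lower. The share of lower genes in each list was above that over all genes, but rests on 1 or 2 genes. GASA1, a gibberellin-regulated gene, had 287, 1313 and 883 reads in Col-0, line #3 and line #6, 2.59-fold higher in line #6 (2.26 to 2.96), while GASA6 had 94, 59 and 34 reads, 3.29-fold lower (2.2 to 5.02), and AT1G22690 of the same family 90, 58 and 51, 2.1-fold lower (1.47 to 3.02). AZI1, which primes systemic defense, had 240, 54 and 118 reads, 2.42-fold lower than Col-0 (1.93 to 3.04) and 2.05-fold higher than line #3 (1.47 to 2.88). EARLI1, its neighbor and relative, had 76, 41 and 45 reads, 2.01-fold lower (1.37 to 2.97). With total reads the calls of AT1G22690 and EARLI1 were lost, at log2 ratios of -0.93 and -0.87. THI2.1, a thionin of jasmonate response, had 63, 6 and 22 reads, 3.41-fold lower (2.07 to 5.81). The other 22 salicylate and 19 jasmonate genes with enough reads were not called.

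Sulfur, clock, glucosinolate and flavonoid genes were not called in line #6. Over all genes only 1.27% were higher and 1.60% lower, so lists this short can hold no call without differing from other genes. In 17 sulfur limitation genes the median log2 ratio was 0.18, and APR1, an enzyme of sulfate reduction, had 1012, 1482 and 1466 reads, a 1.22-fold difference between line #6 and Col-0 (1.12 to 1.32). In 18 circadian clock genes the median was 0.08, with 6695, 6859 and 7844 reads for LHY, a morning gene of the clock, and a 1.02-fold difference (0.983 to 1.05). The medians were 0.09 in 22 glucosinolate genes and -0.04 in 16 flavonoid genes, where CHS, the first enzyme of the pathway, had 2730, 2605 and 3004 reads and differed 1.08-fold (1.03 to 1.14).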

How the data were processed

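RNA-seq of Col-0, OE line #3 and OE line #6 was used, with 1 library per genotype. The deposited table gives raw counts per gene model, not normalized by the authors, and writes NA where both libraries of a pair have 0. CASAVA 1.7 and TAIR10 stand in the submitters' processing notes with no role stated. For the aligner, the counting program and the handling of reads with several matches, the status is: not given in the sources used here. Beside the counts the table holds the authors' RPKM and, for each line against Col-0, their fold, log2 fold and q-value, and further tables hold their changed genes with a direction and with pathway and Gene Ontology categories. None of these was used.

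Reads were scaled with TMM over the 3 libraries (edgeR 4.0.16 in R 4.3.3), which gave factors of 0.981, 0.945 and 1.08 for Col-0, line #3 and line #6. Genes with at least 10 reads in line #6 or Col-0 were kept. The ratio has a 95% exact conditional binomial interval, and a called gene is past 2-fold with an interval that leaves out 1. Intervals and limits for 0 reads cover counting error only, since PCR copies are not independent molecules. No test was run, because 1 library a side leaves no residual degrees of freedom. The ratio and its calls were tested on simulated reads that held counting error only, with changed genes left out where few reads were expected. This checks the arithmetic and cannot show how the calls stand against the spread between pools.

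Symbols, neighbors and promoters come from RefSeq, assembly TAIR10.1, where 32835 loci of 33602 were found. Promoter elements were searched in the 250 bases before the annotated start, and bases after the start were left out. Gene lists hold 436 loci in 24 lists, all of them in the table. The members and lists were chosen with earlier results of these data known. Named genes were the 12 highest and 12 lowest by the interval bound nearest to 1, the same for the genes changed in line #6 and not in line #3 by the ratio of the lines, up to 6 genes opposite in the lines, HSFA3, and up to 4 called genes per list with the most reads, or 2 where none was called. Sets by annotation were the organelle genomes, transposable element genes, defensin-like genes and cytosolic ribosomal proteins. Alternatives covered scaling (DESeq2 1.42.0 size factors, total reads with and without ribosomal RNA and organelle genes), read minimums, the size of a call and the limits set for line #3. The other steps ran in Python 3.11.15 with SciPy 1.17.1, pandas 2.3.3 and NumPy 2.4.6, and figures were drawn with matplotlib 3.10.9.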

Additional observations from a re-analysis of the deposited data

Results flagged for a closer look

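The 7 genes named in the text by rule and called in opposite directions in the OE lines were lower than Col-0 in line #6 and higher in line #3. The difference between the lines was not tested, since each has 1 library. The log2 ratio of line #6 to line #3 was -9.07 for GRP17, -5.97 for ATA27, -5.15 for GRP19, -5.14 for EXL4, -4.46 for AT1G20130, -4.03 for XTH3 and -3.39 for ATA20. Except for GRP17 and ATA20, which had 1 and 21 reads in line #6, the genes had no read there, so that their ratios are bounds. GRP17, GRP19, ATA27, EXL4 and ATA20 are themselves members of the tapetum and pollen coat list. The summed level of that list, 136 CPM in line #3 and 9.88 in line #6, holds their reads and is no separate observation. The part of the list in these values was not tested.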

How the results depend on the processing

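Scaling by DESeq2 size factors left the same 234 higher and 295 lower genes. Scaling by total reads gave 371 higher and 210 lower genes in line #6, among them 234 and 210 of the same genes, and 35 higher and 36 lower genes that were not changed in line #3. Scaling by total reads without ribosomal RNA and organelle genes gave 248 and 274. In the order higher and lower in line #6, then higher and lower in line #6 and not in line #3, the counts were 135, 182, 6 and 31 with at least 10 reads in each library, 85, 101, 4 and 13 with at least 50 reads in one library, 50, 60, 3 and 12 with the interval wholly past 2-fold, and 103, 121, 7 and 23 with 3-fold. A call by 2-fold with no interval gave 373 higher genes, and 33 higher and 93 lower genes that were not changed in line #3. Letting line #3 be any gene not called in that direction gave 109 and 190 genes, and a narrower limit on its distance from Col-0 gave 36 lower genes. Total reads left 10 of 10 tapetum, 5 of 6 floral, 8 of 9 cell wall and 6 of 6 iron genes lower. No named call changed direction, but 5 were lost with total reads (AT1G22690, AT2G07688, EARLI1, FLA11 and DIN10, log2 ratios of -0.97 to -0.87) and 2 of them, EARLI1 at -0.98 and DIN10 at -0.99, with total reads without ribosomal RNA and organelle genes. In the 94 named genes, 13 moved past their counting interval with total reads and 2 with total reads without ribosomal RNA and organelle genes. With at least 50 reads in one library the median log2 ratio of the floral list went from -1.40 to -0.51 and that of the tapetum list from -2.84 to -4.86, each over 3 genes. No replicate could be left out, and no paired analysis was possible because each genotype has 1 library.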

Other observations

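Further genes and sets are given as values, and the single genes were chosen after their values were seen. CA1 and CA2, annotated as carbonic anhydrases, were called lower in line #6, with 11515, 9659 and 5355 reads in Col-0, line #3 and line #6 for CA1 and 4584, 4015 and 2669 for CA2. Their log2 ratios of line #6 to Col-0 were -1.36 and -1.03. The phosphate transporter PHT1;5 had 37, 64 and 137 reads and the phospholipase NPC4 24, 50 and 86, both called higher, while PHT1;1 had 41, 21 and 20 and PHT1;2 16, 11 and 7, both called lower.

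Among 124 transposable element genes with enough reads, of 3908 in the table, 10 (8.06%) were higher and 7 (5.65%) lower in line #6. Over all genes 1.27% were higher and 1.60% lower. Of 8 defensin-like genes with enough reads 4 (50%) were lower in line #6 and none higher. Their median log2 ratios to Col-0 were -1.33 in line #6 and -2.39 in line #3. AT1G34047, one of them, had 207, 6 and 37 reads in Col-0, line #3 and line #6. None of the 5 cytosolic ribosomal protein genes matched by annotation was called. The next or previous locus with enough reads on the same chromosome was called the same way for 13 of the 234 higher and 23 of the 295 lower genes. These include 4 loci from AT1G29418 to SAUR68, of which 3 are annotated as SAUR-like auxin-responsive genes, with 20 to 55 reads in Col-0 and 10 to 29 in line #6.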
